A study of Mus musculus with 8 samples.

Results

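A list of 10 genes of the sarcomere and the Z-disc was followed in the hearts of newborn mice, with connexin43 missing in 1 group and present in the wildtype group. The list held Ldb3, Pdlim5, Csrp3, Myl4, Myl7, Tnnt2, Tnni1, Actc1, Tpm1 and Ttn. A gene was followed through cDNA probes annotated with its symbol and no other, and counted as measured if a probe gave a value on 3 or more arrays in both genotypes. By this rule 7 of the 10 genes were measured, among 11804 features tested on the arrays. Tnnt2 had 1 probe, with a value on 1 null array and 2 wildtype arrays, and Tnni1 and Actc1 had no probe with a single symbol, so that these 3 genes give no comparison. The measured genes were Ldb3, Pdlim5, Csrp3, Myl4, Myl7, Tpm1 and Ttn, read by 10 of the 12 probes with a single member symbol. All 10 had values on all 8 arrays.

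The null group was made of neonatal C57BL mice without connexin43, and the other group of neonatal wildtype C57BL mice. Each group had 4 arrays, and every array carried Cy3-labelled cDNA from its own pool of 3 hearts. A Cy5-labelled common reference, pooled from organs of adult C57BL mice of both sexes with the heart among them, was on every array. Pooling hides the spread between single animals, and the labels give no age beyond neonatal. All values are log2 ratios of heart over this reference, shifted to give every array a median of 0.

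The sarcomere is the contractile unit of heart muscle. Thick filaments of myosin slide along thin filaments of actin, tropomyosin and troponin, and titin spans from the Z-disc to the middle of the unit as a spring. The Z-disc anchors the thin filaments and carries LIM domain proteins that tie it to the cytoskeleton and to signalling. In the newborn heart the fetal isoforms of several sarcomere proteins are being replaced by adult ones. Connexin43, encoded by Gja1, forms the gap junctions through which working heart muscle cells couple electrically, and it lies in the intercalated disc, where the last Z-disc of a cell meets its neighbour.

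The arrays were checked first. Gja1 read -0.29, 0.25, 0.12 and 0.22 on null arrays 1 to 4, against 1.04, 1.31, 0.99 and 0.79 on wildtype arrays 1 to 4, with no overlap. The difference was -0.95 (SE 0.15), and the exact two-sided permutation test gave p = 0.0286, the smallest value that 4 against 4 arrays allow. The position of its probe relative to the deletion is not known, and outside the deletion it would check nothing. Genes of heart muscle outside the sarcomere had median ratios of 0.57 to 0.72 on null arrays and 0.73 to 0.91 on wildtype arrays. Genes of other adult tissues had medians of -2.73 to -1.96 on null arrays and -2.39 to -1.21 on wildtype arrays. Heart muscle genes lay above the others on 8 of 8 arrays, and heart was therefore taken as the numerator. Null arrays had a value at 17879 to 20212 of 28704 spots and wildtype arrays at 12971 to 23929, with the fewest on wildtype array 1. Its rank correlation with the other arrays, 0.576 at the median, was the lowest of the 8.

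Across all features the comparison of null with wildtype hearts called 0 of 11804 at an adjusted p of 0.05 in limma, a share of 0.00%, and 0 of the 7 measured genes. At an unadjusted p under 0.05, 2.10% of all features were higher and 6.13% lower in null hearts. Of the 7 genes, 1 (Ldb3) was higher and 0 were lower at that level. In 0 of the 7 genes did the groups fail to overlap, where 7.54% of all features had groups that did not overlap in either direction. Of the 7 genes, 4 had a higher mean in null hearts (57.1%, against 40.9% of all features). Their median log2 difference was 0.01, against -0.04 for all features. Without centring the median of all features was -0.18, and 1 of the 7 genes, Ldb3, then had a higher mean in null hearts, at 0.35, with Csrp3 at -0.02, Tpm1 at -0.14 and Ttn at -0.04. Centring takes 1 value, the median, off all spots of an array. The deposited medians ran from -0.34 on null array 1 to 0.21 on wildtype array 1, and what set them was not tested. For any gene, fewer muscle cells and less RNA per cell cannot be told apart in these pooled hearts.

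**Figure D1:**
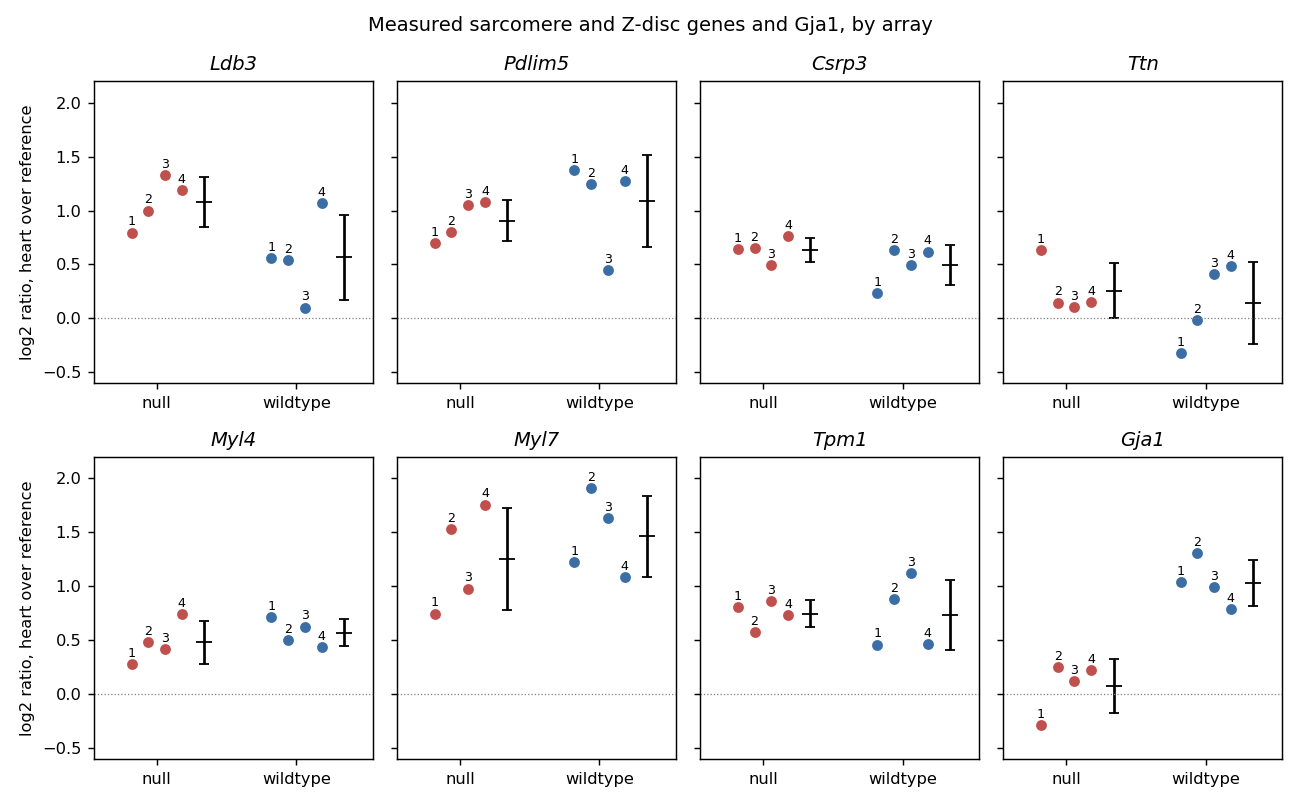
Log2 ratio of heart over reference (vertical axis) on each null array (left, red) and wildtype array (right, blue) for the 7 measured sarcomere and Z-disc genes and for Gja1. Small numbers give the array, and the bar beside each group is the mean with its SD (n = 4). The groups overlap for all 7 genes and not for Gja1.

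Ldb3 encodes Cypher or ZASP, a Z-disc protein with a PDZ domain and LIM domains that binds alpha-actinin. It read 0.80, 1.00, 1.33 and 1.19 on null arrays 1 to 4, against 0.56, 0.54, 0.10 and 1.07 on wildtype arrays 1 to 4. Of the wildtype values, 3 lay below all null values, while wildtype array 4 lay within the null range. The mean was 1.08 ± 0.23 in null hearts and 0.57 ± 0.39 in wildtype hearts (SD, n = 4 each), a difference of 0.51 (SE 0.19) with a 95% interval of 0.09 to 0.93. That is a 1.42-fold higher mean ratio. With centring it was the largest difference of the 7 in size and the only one with an unadjusted p under 0.05 in limma, at rank 459 of all features. Without centring it was 0.35 with an unadjusted p above 0.05, and the difference of Myl7, at -0.37, was larger in size. It did not pass over all features (limma adjusted p = 0.564). With wildtype array 3 left out the difference was 0.35, and with wildtype array 4 left out 0.68. The unadjusted limma p was above 0.05 without wildtype array 3, without null array 3, without null array 4 and with the first of its probes alone.

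Both usable probes of Ldb3 gave a higher mean in null hearts. The first read 0.84, 1.01, 1.36 and 1.22 on null arrays, against 0.39, 1.12, 0.09 and 1.00 on wildtype arrays. The second read 0.76, 0.99, 1.30 and 1.16 on null arrays, against 0.73, -0.03, 0.12 and 1.13 on wildtype arrays. In null hearts the first probe was above the second by 0.01 to 0.08 on each array, so that the readings were nearly the same. In wildtype hearts the gap ran from -0.34 to 1.16, and the 1.16 came from wildtype array 2, where the second probe read -0.03. The differences between genotypes were 0.45 (SE 0.22) and 0.57 (SE 0.24). The spots in the same block of rows as the second probe did not read low on wildtype array 2. Their median was 0.16 there, the highest of all arrays, and the lowest, on null array 1, was -0.14. What set the low reading of the second probe was not tested. Another Ldb3 probe had a value on 0 arrays.

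Pdlim5 encodes ENH, a relative of Ldb3 with the same order of a PDZ domain and LIM domains, found at the Z-disc of heart and skeletal muscle. It read 0.70, 0.80, 1.05 and 1.08 on null arrays, against 1.37, 1.24, 0.45 and 1.27 on wildtype arrays. Of the wildtype values, 3 stood above all null values and 1, on array 3, below all of them. The mean was 0.91 ± 0.19 in null hearts and 1.08 ± 0.43 in wildtype hearts (SD, n = 4 each), a difference of -0.18 (SE 0.19, limma adjusted p = 0.809) with a 95% interval of -0.60 to 0.25. Without wildtype array 3 the difference was -0.39, with an unadjusted limma p under 0.05. That array was the lowest of the wildtype arrays for Ldb3 as well.

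Since the 2 genes belong to 1 family, their ratios were also compared within each array. The pair was chosen with earlier results of these data known, so its p describes these arrays and is no independent test. Ldb3 minus Pdlim5 was 0.10, 0.20, 0.28 and 0.11 on null arrays, against -0.81, -0.70, -0.35 and -0.21 on wildtype arrays. All null values were positive and all wildtype values negative. The mean was 0.17 ± 0.09 (SD, n = 4) in null hearts and -0.52 ± 0.28 (SD, n = 4) in wildtype hearts, and the null minus wildtype difference of 0.69 gave p = 0.0286 in the exact two-sided permutation test. This is the smallest p the design allows, and adjusted over the 2 pairs that could be compared it was 0.0571, which does not pass. With the first Ldb3 probe alone the difference was 0.63 and with the second 0.74, and the groups stayed apart with either. Ldb3 was set above each of the 5676 other genes with values on all arrays, Pdlim5 among them. Of these, 12.9% gave a difference of this kind (Ldb3 minus the gene, groups apart, higher in null). Of the 5676 genes other than Pdlim5, Ldb3 among them, 0.423% did so when set above Pdlim5.

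**Figure D2:**
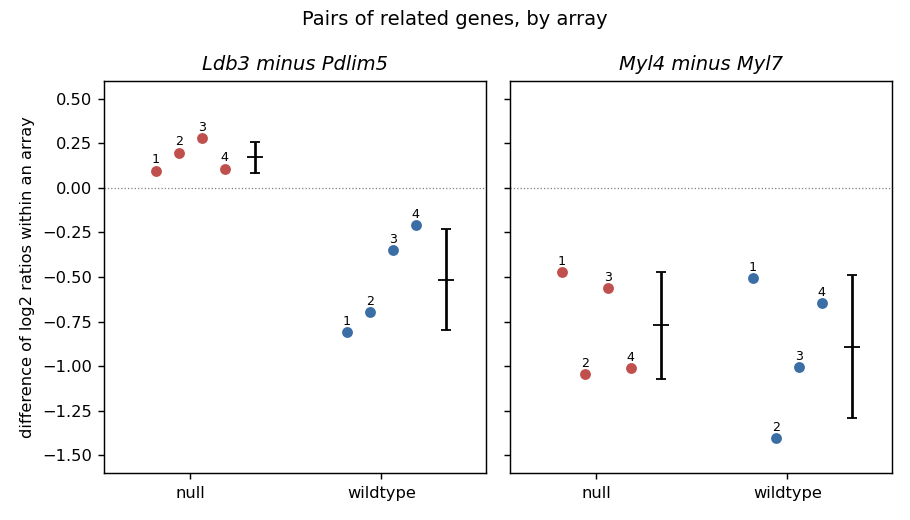
Difference of log2 ratios between the genes of a pair within an array (vertical axis), for null arrays (left, red) and wildtype arrays (right, blue). Bars are the mean with its SD (n = 4). Ldb3 minus Pdlim5 lies between 0.10 and 0.28 on null arrays and between -0.81 and -0.21 on wildtype arrays, while Myl4 minus Myl7 overlaps.

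The 300 bases around the RefSeq start of these 2 genes (250 before and 50 after, GRCm38.p6, printed on the strand of the gene) are shown because this pair gave the separation just described. Capitals mark a CArG box, the site bound by serum response factor, which controls many muscle genes. The Ldb3 window is chr14:34588632-34588931, minus strand, and the Pdlim5 window is chr3:142395647-142395946, minus strand. Both genes have another window that is not printed. That of Pdlim5, chr3:142391801-142392100, has a TATAAA match and no CArG box.
Ldb3: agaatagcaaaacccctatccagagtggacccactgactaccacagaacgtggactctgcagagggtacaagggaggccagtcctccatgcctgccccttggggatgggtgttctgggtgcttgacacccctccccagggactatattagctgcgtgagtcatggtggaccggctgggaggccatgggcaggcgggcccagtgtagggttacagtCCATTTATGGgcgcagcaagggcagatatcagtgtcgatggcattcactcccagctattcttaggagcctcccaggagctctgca
Pdlim5: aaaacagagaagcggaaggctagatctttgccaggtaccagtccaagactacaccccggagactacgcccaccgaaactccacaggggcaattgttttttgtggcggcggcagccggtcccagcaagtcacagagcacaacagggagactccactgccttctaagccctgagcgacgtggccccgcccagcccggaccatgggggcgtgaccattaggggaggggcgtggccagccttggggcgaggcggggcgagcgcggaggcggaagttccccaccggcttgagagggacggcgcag
All 10 listed genes matched the promoter table, with 15 windows in all. A CArG box on either strand was found in 4 of these 15 windows, from Ldb3 (2 overlapping windows that share the box), Myl7 and Actc1, against 1.629% of the 32851 windows of all genes. CATTCC was found in 4 windows, of Myl7, Tnnt2, Tpm1 and Ttn, against 14.7% of all windows. TATAAA was found in 2 (13.6% of all), GATAA in 2 (25.4%) and CANNTG in 11 (72.3%). These are matches of letters on both strands, and nothing on the arrays measures binding there.

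Csrp3 encodes muscle LIM protein, which sits at the Z-disc and takes part in stretch sensing. Its ratio was 0.64, 0.65, 0.49 and 0.76 on null arrays, against 0.24, 0.63, 0.49 and 0.62 on wildtype arrays. The groups overlapped, and wildtype array 1 was the lowest of all. The mean of 0.64 ± 0.11 (SD, n = 4) in null hearts and 0.50 ± 0.18 (SD, n = 4) in wildtype hearts gave a difference of 0.14 (SE 0.12, limma adjusted p = 0.752, 95% interval -0.12 to 0.41). Without wildtype array 1 the difference was 0.06. Its 2 probes gave different ratios on every array, the first above the second by 0.63 to 1.02 on null arrays and by 0.79 to 1.17 on wildtype arrays. The first probe had a difference of 0.03 (SE 0.13). The second read 0.13, 0.22, 0.18 and 0.34 on null arrays, against -0.33, 0.06, -0.09 and 0.22 on wildtype arrays, and had a difference of 0.25 (SE 0.13).

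**Figure D3:**
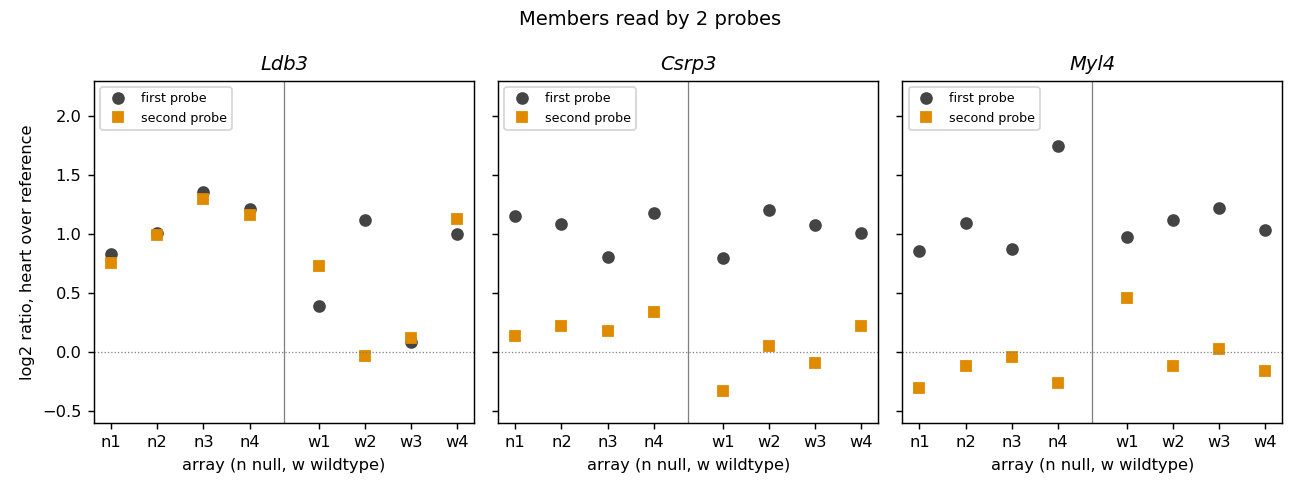
Log2 ratio of heart over reference (vertical axis) on each array (n, null arrays 1 to 4, left; w, wildtype arrays 1 to 4, right) for the 3 measured genes with 2 usable probes. The Ldb3 probes lie together on null arrays and part on wildtype array 2, while those of Csrp3 and Myl4 stand apart on every array.

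Ttn encodes titin, which runs from the Z-disc to the M-band and sets the passive stiffness of heart muscle. Its probe read 0.63, 0.15, 0.10 and 0.15 on null arrays, against -0.32, -0.02, 0.41 and 0.49 on wildtype arrays. Null arrays 2 to 4 were close to each other, null array 1 was the highest value of both groups, and the wildtype values spread to both sides of the null ones. The mean was 0.26 ± 0.25 (SD, n = 4) in null hearts and 0.14 ± 0.38 (SD, n = 4) in wildtype hearts, with a difference of 0.12 (SE 0.19, limma adjusted p = 0.879, 95% interval -0.30 to 0.54). Without null array 1 it was -0.01, so that its sign rested on that array. It was also below 0 without wildtype array 1, at -0.04. A single probe can cover only a small part of a transcript as long as that of titin, and its splice forms are not told apart here.

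Myl7 encodes the regulatory myosin light chain of the atria, which binds the neck of the myosin head. It read 0.75, 1.53, 0.98 and 1.76 on null arrays, against 1.22, 1.91, 1.63 and 1.08 on wildtype arrays. Values were widely spread in both groups and overlapped. The mean was 1.25 ± 0.47 (SD, n = 4) in null hearts and 1.46 ± 0.38 (SD, n = 4) in wildtype hearts, and the difference of -0.21 (SE 0.24, limma adjusted p = 0.817) had the widest 95% interval of the 7 genes, -0.74 to 0.32. Leaving out 1 array moved it between -0.38 without null array 4 and -0.04 without null array 1.

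Myl4 encodes the essential light chain of the atria, which is also made in the fetal ventricle. It read 0.28, 0.49, 0.42 and 0.74 on null arrays, against 0.72, 0.50, 0.63 and 0.44 on wildtype arrays. The null arrays held both the lowest and the highest of the 8 values. The mean was 0.48 ± 0.20 (SD, n = 4) in null hearts and 0.57 ± 0.12 (SD, n = 4) in wildtype hearts, a difference of -0.09 (SE 0.12, limma adjusted p = 0.855, 95% interval -0.37 to 0.18). Without null array 1 it was -0.02 and without null array 4 it was -0.18. The first of its 2 probes read 0.86, 1.09, 0.88 and 1.75 on null arrays, against 0.97, 1.12, 1.23 and 1.03 on wildtype arrays. The second read -0.31, -0.12, -0.04 and -0.26 on null arrays, against 0.46, -0.12, 0.03 and -0.16 on wildtype arrays. They gave differences of opposite sign, 0.05 (SE 0.18) and -0.24 (SE 0.15). The first stood above the second by 0.92 to 2.01 on null arrays and by 0.51 to 1.24 on wildtype arrays.

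Myl4 minus Myl7 within an array was -0.47, -1.05, -0.56 and -1.01 on null arrays, against -0.51, -1.40, -1.004 and -0.65 on wildtype arrays. These groups overlapped, and the difference of 0.12 gave p = 0.657 in the exact two-sided permutation test (adjusted p = 0.657 over the 2 pairs). The pairs of Tnni1 with Tnni3 and of Actc1 with Acta1 could not be compared because a gene of each was not measured here. Atrial markers outside the list (Nppa, Sln, Nr2f2, Tbx5 and Dkk3, 5 of 8 measured) had higher means in null hearts for 3 and lower for 2, with mean levels of 0.26 to 0.79 on null arrays and 0.28 to 0.73 on wildtype arrays. Of 5 ventricular markers 0 were measured, so the share of atrial tissue in a pool was not tested.

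Tpm1 encodes alpha-tropomyosin, the coiled coil that lies along the thin filament and covers the myosin binding sites of actin at rest. It read 0.81, 0.58, 0.86 and 0.73 on null arrays, against 0.46, 0.88, 1.12 and 0.46 on wildtype arrays. The null values lay inside the wildtype range. The mean was 0.74 ± 0.12 (SD, n = 4) in null hearts and 0.73 ± 0.33 (SD, n = 4) in wildtype hearts, with a difference of 0.01 (SE 0.16, limma adjusted p = 0.983, 95% interval -0.33 to 0.36). Without wildtype array 3 the difference was 0.14 and without wildtype array 1 it was -0.08. Tropomyosin genes resemble each other, and how far its cDNA probe also bound the others was not tested. Tnnt2, the gene of cardiac troponin T, read 0.02 on null array 3 and -0.30 and 0.25 on wildtype arrays 2 and 3, with no value elsewhere.

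The genes also differed in how far their arrays spread. The median SD over the 7 genes was 0.20 in null and 0.38 in wildtype hearts, against 0.16 and 0.19 over all features. The wildtype SD was the larger one for 5 of the 7 genes (Ldb3, Pdlim5, Csrp3, Tpm1 and Ttn) and for 59.3% of all features. The median SE of their difference was 0.19, against 0.14 for all features. No single array was low throughout: the lowest wildtype value was on array 3 for Ldb3 and Pdlim5, on array 1 for Csrp3, Tpm1 and Ttn, and on array 4 for Myl4 and Myl7. Of the 32 members and other sarcomere genes with values on all wildtype arrays, 46.9% had their lowest one on array 1, as did 37.8% of all features.

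The mean of the 7 genes, each centred on its own mean, was -0.09, -0.00, 0.00 and 0.17 on null arrays and -0.14, 0.07, -0.05 and 0.03 on wildtype arrays. Among 5670 other genes with values on all 8 arrays, the patterns most like it were those of Lman2, a cargo receptor of the secretory pathway (Pearson r = 0.95), Gsn, which encodes the actin-severing protein gelsolin (r = 0.92), and Myl12b, a regulatory light chain of nonmuscle myosin (r = 0.92). These describe 8 arrays that share 1 reference and 1 centring, and the genes were picked for their r. Their own differences were 0.09 (SE 0.12), 0.13 (SE 0.16) and 0.08 (SE 0.13), and none passed in limma (adjusted p = 0.854, 0.833 and 0.875).

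The rest of the sarcomere was read from 4 lists of 74 other genes, of which 31 were measured. Over all of them 19 had a higher and 12 a lower mean in null hearts, the log2 differences had a median of 0.02, and 0 passed over all features. In 2 of the 31, Tnnt1 and Smyd1, the groups did not overlap, where 7.54% of all features had groups apart in either direction. Both had higher values in null hearts, a direction in which 2.00% of all features had groups apart. Tnnt1 had values on only 3 wildtype arrays. The mean level of the 31 genes was 0.52 to 0.66 on null arrays and 0.45 to 0.64 on wildtype arrays.

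Of the 33 other Z-disc genes 18 were measured, 12 with a higher and 6 with a lower mean in null hearts (median difference 0.02). At an unadjusted p under 0.05 in limma 1 of the 18, Actn3, was lower, as were 6.13% of all features. Actn3, the alpha-actinin of fast skeletal muscle fibres, read -0.12, -0.52, -0.84 and -0.35 on null arrays, against -0.02, 0.05, -0.24 and -0.23 on wildtype arrays, a difference of -0.35 (SE 0.15, limma adjusted p = 0.594). Actn2, the alpha-actinin of heart muscle to which the product of Ldb3 binds, had a difference of 0.13 (SE 0.14), with 1.21 to 1.83 on null arrays and 1.22 to 1.35 on wildtype arrays. Myoz2, which encodes the calsarcin of heart muscle, averaged 0.39 ± 0.11 (SD, n = 4) in null hearts and 0.58 ± 0.08 (SD, n = 4) in wildtype hearts, a difference of -0.19 (SE 0.10), with 1 null array inside the wildtype range. Capza1, a subunit of the protein that caps thin filaments at the Z-disc, had 0.22 (SE 0.16), with differences of 0.19, 0.44 and -0.05 on its 3 probes. Flnc, the filamin of striated muscle, had 0.31 (SE 0.22) over 4 null and 3 wildtype arrays. The PDZ-LIM relatives Pdlim1, Pdlim3 and Pdlim7 had differences of 0.03 (SE 0.10), 0.20 (SE 0.26) and 0.10 (SE 0.11), and Csrp2, a relative of Csrp3, had 0.02 (SE 0.09).

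The thick filament list had 3 of 12 genes measured, all with higher means in null hearts and none past the test. Myl1, the essential light chain of fast skeletal muscle, read 0.20, 0.29, 0.27 and 0.65 on null arrays, against 0.17, 0.56, -1.07 and -0.97 on wildtype arrays. Its difference of 0.68 (SE 0.32, limma adjusted p = 0.594) came with wildtype arrays on both sides of 0. Myh8 and Myh3, the perinatal and embryonic myosin heavy chains of skeletal muscle, had differences of 0.31 (SE 0.17) and 0.21 (SE 0.21). The mean level of these 3 genes was 0.52 to 0.88 on null arrays and -0.21 to 0.55 on wildtype arrays.

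In the thin filament list 7 of 17 genes were measured, 2 with a higher and 5 with a lower mean in null hearts (median -0.05). Tnnt1, the troponin T of slow skeletal muscle, read 1.06, 1.18, 1.35 and 1.15 on null arrays, against 1.02, 0.97 and 0.96 on wildtype arrays 2 to 4, with no value on wildtype array 1. All null values were above the wildtype ones, with a difference of 0.20 (SE 0.11, limma adjusted p = 0.635). Tnnc1, the troponin C of heart muscle, averaged 1.15 ± 0.14 (SD, n = 4) in null hearts and 1.15 ± 0.21 (SD, n = 4) in wildtype hearts, a difference of -0.00 with a 95% interval of -0.29 to 0.28. Tnnc2, its fast skeletal counterpart, had -0.21 (SE 0.13), Fhod3, a formin that builds thin filaments, -0.32 (SE 0.27) and Tmod1, which caps their pointed ends, -0.05 (SE 0.11). Tpm2 and Tpm3 had -0.05 (SE 0.21) and 0.02 (SE 0.17), beside the 0.01 of Tpm1.

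Of the M-band genes and titin partners 3 of 12 were measured. Smyd1, a methyltransferase of striated muscle that helps to assemble myosin, read 1.24, 1.28, 1.62 and 1.23 on null arrays, against 0.97, 1.21, 1.15 and 1.14 on wildtype arrays. The groups did not overlap, though 1.23 on null array 4 lay close to 1.21 on wildtype array 2, and the difference was 0.22 (SE 0.12, limma adjusted p = 0.620). Obsl1, a relative of obscurin that links titin and myomesin, had 0.34 (SE 0.25) over 3 wildtype arrays, and Nbr1, which binds the titin kinase, -0.03 (SE 0.12).

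**Figure D4:**
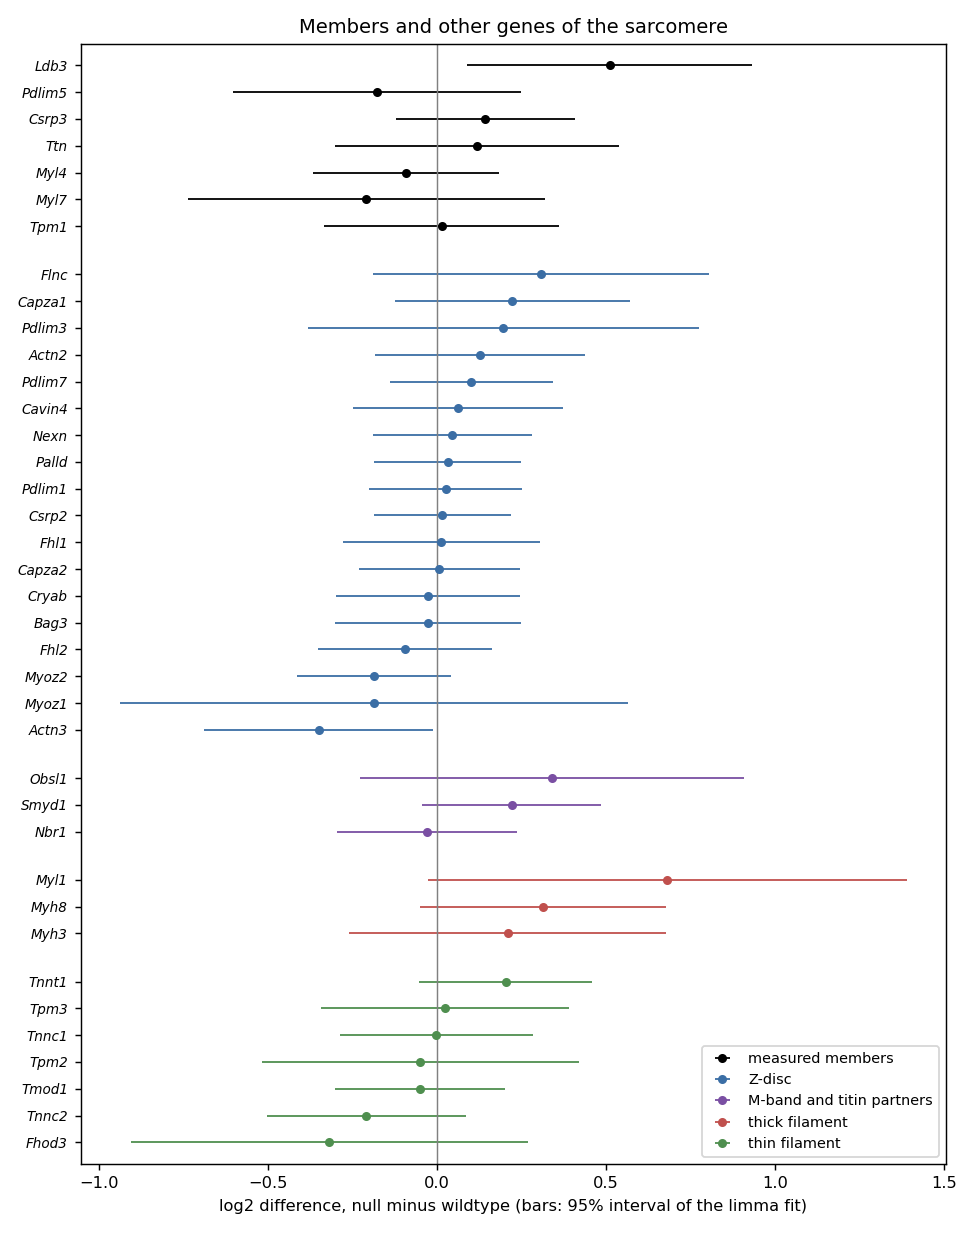
Log2 difference of null minus wildtype hearts (horizontal axis) with its 95% interval from the limma fit, for the 7 measured genes (black) and the 31 other sarcomere genes by list. The intervals of Ldb3, 0.09 to 0.93, and of Actn3 leave out 0 before adjustment over all features.

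Markers of other cell types were set beside these values. Of 14 skeletal muscle markers 4 were measured (Mylpf, Actn3, Tnnc2 and Atp2a1), all with lower means in null hearts, and their mean level was -0.09 to 0.14 on null arrays and 0.24 to 0.41 on wildtype arrays. The thick filament genes named above, known from skeletal muscle, had higher means in null hearts. Smooth muscle markers (3 of 8 measured) had a median difference of -0.03, fibroblast markers (5 of 9) 0.12, endothelial markers (7 of 10) 0.18, erythroid markers (5 of 8) 0.21 and macrophage markers (5 of 8) -0.06. Genes of heart muscle outside the sarcomere (10 of 18 measured) had a median of -0.08, with 3 higher and 7 lower means in null hearts and mean levels of 0.67 to 0.82 on null arrays and 0.70 to 0.94 on wildtype arrays. All 12 measured genes of other adult tissues had lower means in null hearts (median -0.33), with levels of -2.70 to -2.21 on null arrays and -2.25 to -1.66 on wildtype arrays. The part of these in the values of the sarcomere genes was not tested.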

How the data were processed

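The labels give 2-colour cDNA arrays, 4 of null and 4 of wildtype hearts, with all dyes in 1 orientation. The deposited values are log2 ratios per spot. Base 2 was taken from the values. Within blocks of 598 rows, 8347 of 31304440 pairs of spots differed by a base 2 log of whole-number ratios up to 120 (tolerance 1.5e-09). Natural logs matched 269 pairs and base 10 logs 863. For scanner, background correction, spot filter, scaling and ratio direction, the sources used here give nothing. The deposited medians were -0.34, -0.28, -0.08 and -0.24 on null arrays 1 to 4 and 0.21, -0.10, -0.31 and -0.11 on wildtype arrays 1 to 4. Pearson correlations between arrays were at least 0.474, so no array ran against the others.

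Probes were named through the platform annotation (18511 with 1 symbol, 937 with several and 9256 unnamed). Of those with several symbols, 3 name Tpm1 and 1 names Ttn, each beside a symbol that RefSeq lists as an older name of the same gene. The rule of a single symbol left them out, so Tpm1 rests on 1 of 4 and Ttn on 1 of 2 probes. The median of an array was subtracted from its values. Probes of a gene with 3 or more values in both genotypes were combined by an additive fit over probes and arrays, the plain mean where no value is missing. Null minus wildtype was fitted with limma 3.58.1 (lmFit and eBayes, R 4.3.3) over 7603 genes and 4201 other probes, with Benjamini-Hochberg adjustment, and tested on simulated data. Replicates are pools of hearts, so a p-value reflects how pools vary, not single animals. The 10 genes are all described. From each list the up to 4 genes with the smallest unadjusted p are named, in no fixed place. Those named beside them (Actn2, Pdlim1, Pdlim3, Pdlim7, Csrp2, Tnnc1, Tpm2 and Tpm3) were chosen as relatives or partners after their values were seen. Members, lists, pairs and tests were chosen with earlier results of these data known. Both genotypes carry the numbers 1 to 4, and the number was tried as a block. Figures were made with matplotlib 3.10.9 under Python 3.11.15.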

Additional observations from a re-analysis of the deposited data

Results flagged for a closer look

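A value far from the rest was looked for in the groups of 4 values of the 7 genes, Gja1, the 6 single probes, the 31 other sarcomere genes, the pairs and the genes of like pattern. Of these 94 groups 5 held one, where chance gives about 1 in 20, or 4.7. Pdlim5 was at 0.45 on wildtype array 3, against 1.24 to 1.37 on the other wildtype arrays. Ttn was at 0.63 on null array 1, against 0.10 to 0.15 on the other null arrays. Capza1 was at 0.75 on null array 1, against 0.08 to 0.18 on the other null arrays. Smyd1 was at 1.62 on null array 3, against 1.23 to 1.28 on the other null arrays. Bag3, a co-chaperone of the Z-disc, was at 0.060 on wildtype array 2, against 0.44 to 0.45 on the other wildtype arrays.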

How the results depend on the processing

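Over all alternatives 137 of 153 values of the 7 genes kept their direction and 16 did not. The count includes settings that could not change a difference of these genes, whose usable probes had values on all arrays. Such settings were the filters, the plain mean of probes, eBayes with trend, robust eBayes and the replicate block. Ldb3, Pdlim5, Myl7 and Gja1 kept their direction in every setting run. In every setting with adjusted p-values 0 features passed, while the unadjusted threshold counted 972. Without centring the median of the 7 genes was -0.14, 1 gene was higher in null hearts, and Csrp3, Tpm1 and Ttn were at -0.016, -0.14 and -0.040. Features with an unadjusted p under 0.05 then numbered 28 higher and 1364 lower in null hearts, against 248 and 724 with centring. Tpm1 was at -0.033 with quantile normalization and -0.080 with scaling. Array weights put Myl4 at 0.021, Tpm1 at -0.12 and Ttn at -0.017. Myl4 was at 0.055 with its first probe. The setting that takes the probe with the fewest missing values used the same one, although neither Myl4 probe lacked a value. Of the single probes, 7 of 10 were higher in null hearts. Leaving out 1 array at a time moved the median of the genes between -0.075 (without wildtype array 4) and 0.14 (without wildtype array 3), and the number higher in null hearts between 2 (without null array 1 or wildtype array 1) and 4. Tpm1 ran from -0.077 to 0.14 and Ttn from -0.036 to 0.23. Ldb3 minus Pdlim5 ran from 0.59 to 0.79, each with an exact p of 0.0571, the smallest that 3 against 4 arrays allow. Myl4 minus Myl7 ran from -0.053 (without wildtype array 2) to 0.25. With each feature centred within its genotype, same-numbered arrays had correlations of -0.24, -0.01, -0.25 and -0.02. These show no pairing by number, though values centred over 4 arrays cannot exclude one. With the replicate number as a block 0 features passed, Ldb3 was at 0.51, and 198 features were higher and 530 lower at an unadjusted p under 0.05. Alternatives to the filter and the plain mean of probes left the values of the 7 genes as they were. The causes of these changes were not tested. The number of arrays limits the precision.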
